A study of Homo sapiens with 60 samples.

Results

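SW1783 cells, an established line from a human astrocytoma, were exposed for 24 h to an ethanol extract of Astragali Radix at 220 µg/mL, its highest dose, and compared with cells given the vehicle. The members of the comparison are the 3 libraries labelled as the high dose and the 3 labelled as the vehicle, so 6 of the 60 libraries of the series, chosen by their labels and not by any measured value. Astragali Radix is the dried root of Astragalus, a herb of East Asian medicine, and the series profiled it beside other herbal extracts. The labels give the vehicle as 0.1% DMSO. The series' own text names another percentage for the vehicle, and the labels do not settle which applied. The series text also says that an extract with an IC20 below the standard top dose was given at that IC20 and at lower dilutions of it; here the lower doses were 44 µg/mL (medium) and 8.8 µg/mL (low), with 3 libraries each. The other extracts of the series, each at 3 doses, enter as libraries that share the estimate of spread and the choice of genes tested. The 3 single libraries of Rehmanniae Radix Preparata were left out, and the low dose of Cinnamomi Cortex also served as another comparator. RNA was sequenced in bulk from total RNA. The labels do not say that replicates came from separate cultures, so p-values measure only a spread between libraries. That spread was estimated over the 57 libraries of the fit and not from the 6 compared libraries alone. The vehicle libraries carry a sample code that no extract carries, so within this comparison a difference of that set of cultures from the rest and an effect of the extract cannot be told apart. With the low dose of Cinnamomi Cortex, another extract of the series, in place of the vehicle, 12443 genes were called. Of these 10866 were also called against the vehicle, 10843 in the same direction, with the same 3 high-dose libraries in both.

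Cells that meet oxidants, misfolded proteins or a shortage of amino acids switch on separate sets of genes. NRF2 drives the antioxidant genes, heat shock factors drive the chaperones, and ATF4 drives the genes of amino acid supply and the integrated stress response. Cells that leave the cell cycle lose the messages for mitosis, many of which are read only by dividing cells. The markers that go with this comparison stand for these responses: HMOX1 (haem oxygenase) for NRF2, HSPA6 (an inducible chaperone of the HSP70 family) for heat shock, ATF3 and GDF15 for the stress response, and MKI67 (the Ki-67 protein) for division.

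The high-dose libraries held between 20764583 and 30263651 expected counts and the vehicle libraries between 24212214 and 26167537, within the 19793387 to 37152410 of all 60 libraries. Genes with at least 10 counts numbered 14448 to 15098 in the high-dose libraries, against 15558 to 15759 in the vehicle libraries. Levels are given as CPM, counts scaled to a common library size after TMM scaling. TMM factors were 0.752, 0.757 and 0.784 for high-dose libraries, against 0.957, 0.969 and 0.962 for the vehicle. Scaling by total counts alone would lower every log2 change by about the same amount, with a median shift of -0.33 over all genes, and list balances that this turns are given with them. Of 19 genes of astrocyte and glial identity, 12 were high enough to test, and 4 defining astrocyte markers were near 0: GFAP, S100B, AQP4 and ALDH1L1 had at most 4 counts in any of the 6 libraries. SOX9, a glial transcription factor, was not called different, at 81.3, 78.2 and 75.0 CPM at the high dose and 80.0, 85.4 and 79.9 CPM in the vehicle. VIM, the intermediate filament vimentin, stood at 8133, 7928 and 6714 CPM at the high dose and at 5622, 5421 and 5541 CPM in the vehicle. Of 21 markers of neurons, microglia, oligodendrocytes, endothelium, epithelium and lymphocytes, 8 were high enough to test. Their summed level was 12.8 to 13.6 CPM at the high dose and 16.5 to 17.7 CPM in the vehicle, with AIF1, TYROBP and MOG at 0 in all 6 libraries. Of the 8, 1 rose and 2 fell, among them PTPRC, a leukocyte surface phosphatase, at 4.32, 4.63 and 3.81 CPM at the high dose and 8.62, 8.37 and 8.72 CPM in the vehicle.

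Of 17676 genes tested, 12052 were called different between the high dose and the vehicle (68.2%), by edgeR's quasi-likelihood test at a Benjamini-Hochberg adjusted p below 0.05. Higher calls numbered 5763 (32.6%) and lower calls 6289 (35.6%), and the median log2 change over all genes tested was -0.06. The counts of the gene lists below are to be read beside these shares. Most calls were small: 7240 of them were under 2-fold. At 2-fold or more, 1936 genes rose (11%) and 2876 fell (16.3%), and at 8-fold or more 184 rose and 230 fell. By total counts alone, 3573 genes were higher and 9004 lower, and at 2-fold or more 1139 and 4415. By upper-quartile scaling, 4766 were higher and 7358 lower. A gene whose 3 high-dose values all lay above its 3 vehicle values was common (35.7% of genes), as was the reverse (38.5%), so such a separation alone does not mark a gene out. At an unadjusted p below 0.05, 70.3% of genes differed. The medium dose gave 2927 calls against the same vehicle libraries (16.6%; 7.75% higher and 8.81% lower), and 11743 genes differed between the high and the medium dose (66.4%; 32.6% higher and 33.9% lower).

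The 5 markers all changed. HMOX1 (ENSG00000100292, chr22:35380361-35394214 on GRCh38) stood at 6633, 6692 and 5788 CPM in the high-dose libraries and at 86.2, 83.8 and 82.9 CPM in the vehicle libraries, a log2 change of 6.24 ± 0.11 (SE, n = 3 each; edgeR adjusted p = 2.29e-39). Each SE of a log2 change is the absolute change over the square root of its F value in the 57-library fit. It is not the scatter of the 3 values of each group. GDF15, a secreted stress factor, stood at 433, 443 and 422 CPM at the high dose and at 3.42, 3.87 and 3.87 CPM in the vehicle. ATF3, a transcription factor of the same response, stood at 268, 256 and 221 CPM at the high dose and at 2.02, 3.39 and 2.92 CPM in the vehicle. MKI67 stood at 14.5, 15.4 and 14.9 CPM at the high dose and at 284, 268 and 273 CPM in the vehicle, a log2 change of -4.20 ± 0.16 (SE; edgeR adjusted p = 5.65e-27). The high-dose and vehicle values of these 4 genes did not overlap. Since this is bulk RNA, fewer cells expressing a gene and less of its RNA per cell cannot be told apart. As a frame for what follows, all 17 NRF2 targets, all 15 heat shock genes and all 18 ATF4-response genes of the lists rose (median log2 changes 2.52, 1.88 and 3.23) and all 25 genes of G2/M and mitosis fell (median -1.90). These lists hold genes known to answer such treatments, and earlier results of these data were known when they were drawn up.

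A small set of genes was nearly silent in the vehicle and clearly expressed at the high dose. Taking as gained a gene below 1 CPM in each vehicle library and at 5 CPM or more in each high-dose library, 22 genes qualified (0.124% of those tested), 20 of them with a name. HSPA6 (ENSG00000173110, chr1:161524540-161526910, plus strand) led them, at 247, 178 and 104 CPM at the high dose and 0.165, 0.197 and 0.172 CPM in the vehicle, a log2 change of 9.91 ± 0.32 (SE; edgeR adjusted p = 9.57e-30). Its vehicle values rest on at most 5 counts, so the size of the fold depends on the prior count of the fit. The 3 high-dose values were uneven, with the third library lowest. The third library was also lowest for HSPA1A, another inducible HSP70 gene, which stood at 5612, 4365 and 3158 CPM at the high dose and at 120, 123 and 133 CPM in the vehicle. HSPA1A and its near-copy HSPA1B share reads, so their split is uncertain. The HSPA6 promoter is shown because this gene had the largest log2 change of all genes tested, beside that of ATF3 for the stress response and those of MKI67 and KIF18B, a mitotic kinesin, for the genes of division. The sequences are RefSeq's, 250 bases before to 50 after the start on GRCh38.p14, 5′ to 3′ on the strand of the gene. For each printed gene the first listed promoter was taken, and any other start of that gene is not shown. Capitals mark GAANNTTC or TTCNNGAA (heat shock element, 3 matches of which a pair overlap) in HSPA6, chr1:161524290-161524589. They mark TGATGNAA (amino acid response element) in ATF3, chr1:212565157-212565456, and TTTGAA (cell cycle homology region) in MKI67, chr10:128126374-128126673, and KIF18B, chr17:44947724-44948023.
HSPA6: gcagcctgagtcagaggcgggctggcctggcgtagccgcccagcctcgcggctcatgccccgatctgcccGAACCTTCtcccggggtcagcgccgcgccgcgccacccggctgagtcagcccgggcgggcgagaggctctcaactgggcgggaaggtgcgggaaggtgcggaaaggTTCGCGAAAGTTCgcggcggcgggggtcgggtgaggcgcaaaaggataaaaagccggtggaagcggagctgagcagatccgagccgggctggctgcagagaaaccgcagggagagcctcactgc
ATF3: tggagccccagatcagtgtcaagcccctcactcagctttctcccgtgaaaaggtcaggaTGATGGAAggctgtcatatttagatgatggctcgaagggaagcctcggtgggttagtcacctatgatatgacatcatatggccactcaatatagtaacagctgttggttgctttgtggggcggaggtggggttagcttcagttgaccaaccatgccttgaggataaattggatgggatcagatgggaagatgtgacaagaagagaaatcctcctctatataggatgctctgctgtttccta
MKI67: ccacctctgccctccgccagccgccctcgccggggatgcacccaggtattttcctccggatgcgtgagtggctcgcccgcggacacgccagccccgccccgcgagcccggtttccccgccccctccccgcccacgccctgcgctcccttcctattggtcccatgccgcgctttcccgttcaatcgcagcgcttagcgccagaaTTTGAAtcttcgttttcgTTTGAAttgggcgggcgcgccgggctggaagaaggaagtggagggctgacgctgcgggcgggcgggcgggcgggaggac
KIF18B: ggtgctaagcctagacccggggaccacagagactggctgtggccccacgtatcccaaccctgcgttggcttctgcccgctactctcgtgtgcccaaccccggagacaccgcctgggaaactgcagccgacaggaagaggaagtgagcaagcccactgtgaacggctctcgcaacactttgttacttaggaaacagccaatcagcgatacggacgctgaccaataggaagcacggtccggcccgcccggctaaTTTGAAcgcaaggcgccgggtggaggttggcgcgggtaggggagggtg

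Among 35116 RefSeq promoters searched on both strands, 13.5% held the heat shock element, 3.62% TGATGNAA and 15.2% TTTGAA. That set can hold several promoters of a gene, whereas the lists and the genes tested took 1 per gene. Among genes tested the shares were 10.3%, 1.75% and 10.1%. Of the 14 heat shock genes with a promoter in the table, 6 held the heat shock element (42.9%). Of the 16 ATF4-response genes, 3 held TGATGNAA (18.8%). Of the 22 genes of G2/M and mitosis, 17 held TTTGAA (77.3%) and 19 held CCAAT (86.4%), which 34.6% of all promoters hold. TTTGAA stood in 18 of 74 promoters of the 100 largest falls (24.3%) and in 4 of 71 of the 100 largest rises (5.63%), against 10.1% of the promoters of genes tested. The other motifs differed less or were rare. The heat shock element stood in 16.9% of promoters of the largest rises and 14.9% of the largest falls, against 10.3% of genes tested. The antioxidant element stood in 15.5% and 13.5%, against 15.1%, and CCAAT in 43.7% and 47.3%, against 36.6%. TGATGNAA stood in 5 of 71 promoters of the largest rises (7.04%) and 0 of 74 of the largest falls, against 1.75% of genes tested. The antioxidant element, searched as TGACNNNGC, stood in 4 of 13 promoters of NRF2 targets (30.8%), against 13.4% of all promoters and 15.1% of genes tested. TTTGAA and CCAAT stood in 3 and 11 of 33 promoters of primary cilium genes. These matches describe letters in a window and say nothing of binding.

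The other gained genes came from several functions. ATP6V0D2, a subunit of the proton pump that acidifies lysosomes, stood at 33.5, 35.7 and 34.2 CPM at the high dose and at 0.248, 0.395 and 0.215 CPM in the vehicle (log2 change 6.88 ± 0.25, SE). RRAGD, a GTPase that recruits mTORC1 to the lysosome, stood at 18.2, 19.2 and 18.1 CPM at the high dose and at 0.289, 0.553 and 0.215 CPM in the vehicle. Both were thus nearly silent in the vehicle and even across the high-dose libraries. BEX2 and BEX4, small X-linked proteins of the brain-expressed family, were gained together, BEX2 at 8.89, 10.2 and 6.89 CPM and BEX4 at 15.4, 16.8 and 14.9 CPM at the high dose. In the vehicle, BEX2 was at 0.0825, 0.0395 and 0.129 CPM and BEX4 at 0.619, 0.750 and 0.816 CPM. ARC, an immediate early gene of neurons, stood at 34.2, 26.9 and 18.7 CPM at the high dose and at 0.908, 0.711 and 0.688 CPM in the vehicle. BBC3 (the pro-death protein PUMA) stood at 11.3, 11.3 and 8.48 CPM at the high dose and at 0.454, 0.395 and 0.301 CPM in the vehicle. RND1, a GTPase that loosens actin fibres, stood at 7.13, 6.98 and 6.89 CPM at the high dose and at 0.330, 0.237 and 0.215 CPM in the vehicle. The matrix protease MMP10 stood at 7.18, 5.63 and 5.04 CPM at the high dose and at 0.330, 0.316 and 0.172 CPM in the vehicle. Noncoding RNAs and a pseudogene were gained too. LINC02154 stood at 16.7, 17.0 and 15.4 CPM at the high dose and at 0.0825, 0.118 and 0.258 CPM in the vehicle. PHLDA1-AS1, whose reads may be mixed with those of its sense partner, had 22.3, 16 and 9.10 CPM at the high dose and counts in only 1 vehicle library, and its log2 change of 6.81 had a wide SE of 1.59. RPLP0P2, a ribosomal protein pseudogene that may share reads with its parent gene, stood at 21.5, 20.5 and 22.6 CPM at the high dose and at 0.701, 0.711 and 0.902 CPM in the vehicle. RASGEF1B, PRADX and C11orf96 complete the gained genes that are plotted, with log2 changes of 3.97, 3.90 and 4.28.

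**Figure D1:**
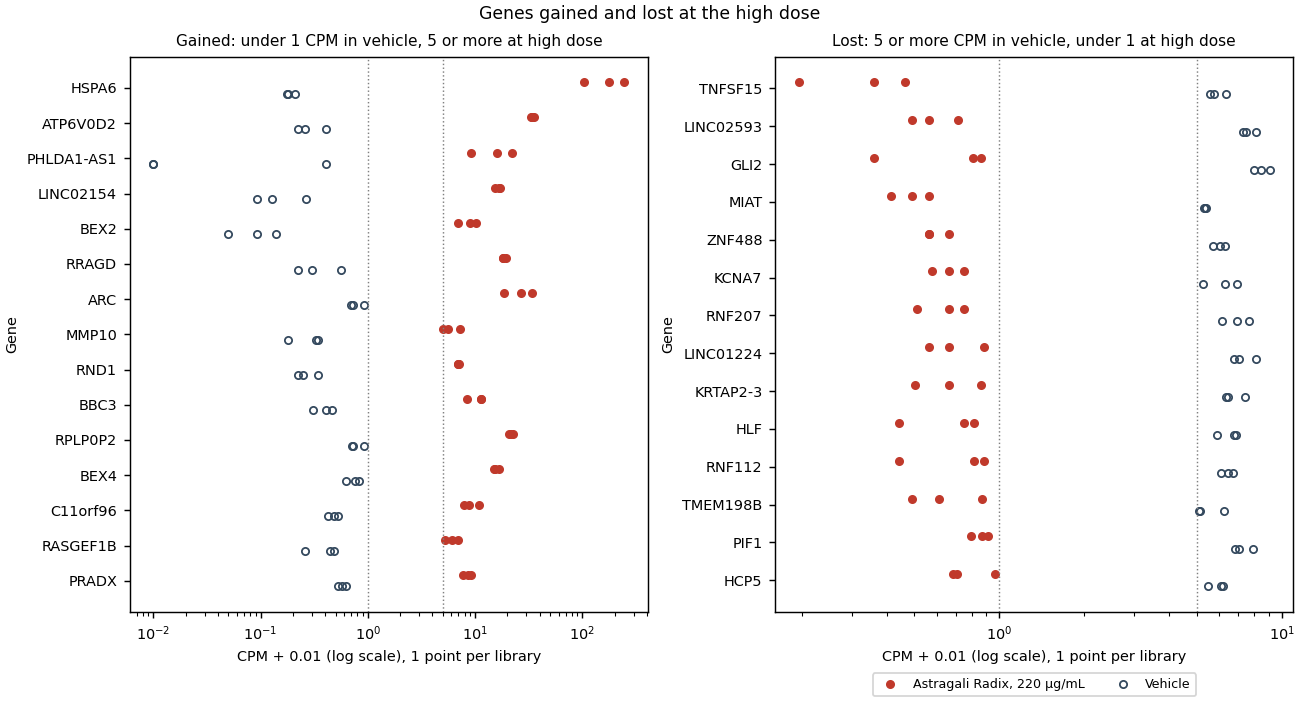
CPM plus 0.01 in each library (1 point each, log axis) for 15 gained genes (left) and 14 lost genes (right), with the high dose as filled red points above the vehicle as open dark points; dotted lines mark 1 and 5 CPM. No high-dose point meets a vehicle point of the same gene, which the choice of these genes fixes, and HSPA6 lies furthest from its vehicle values.

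The reverse pattern, 5 CPM or more in each vehicle library and below 1 CPM in each high-dose library, held for 16 genes (0.0905%), 14 of them named. GLI2, the main transcriptional activator of Hedgehog signalling (ENSG00000074047, chr2:120735623-120992653), stood at 0.854, 0.349 and 0.799 CPM at the high dose and at 8.46, 9.08 and 7.99 CPM in the vehicle (log2 change -3.71 ± 0.17, SE; edgeR adjusted p = 1.94e-23). TNFSF15, a cytokine of the TNF family, stood at 0.452, 0.349 and 0.184 CPM at the high dose and at 5.57, 6.36 and 5.76 CPM in the vehicle. HLF, a transcription factor of the PAR bZIP family, stood at 0.803, 0.742 and 0.430 CPM at the high dose and at 6.77, 5.88 and 6.88 CPM in the vehicle. PIF1, a DNA helicase, stood at 0.904, 0.786 and 0.861 CPM at the high dose and at 7.06, 7.89 and 6.83 CPM in the vehicle. The potassium channel gene KCNA7 stood at 0.653, 0.567 and 0.738 CPM at the high dose and at 6.93, 5.25 and 6.32 CPM in the vehicle. Noncoding RNAs made up part of the set: MIAT, LINC02593, LINC01224 and HCP5 had log2 changes of -3.48, -3.72, -3.36 and -2.92. ZNF488, RNF207, RNF112, KRTAP2-3 and TMEM198B were the remaining coding or transcribed genes, with log2 changes of -3.33, -3.45, -3.14, -3.31 and -3.11.

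Among called genes at 5 CPM or more in the higher group that were named by the rule, the deepest fall was that of ALDH1A3-AS1, an RNA antisense to the retinaldehyde dehydrogenase gene ALDH1A3 (ENSG00000259583, chr15:100892859-100919283, minus strand). It stood at 1.91, 1.88 and 2.34 CPM at the high dose and at 49.7, 47.8 and 48.5 CPM in the vehicle, a log2 change of -4.59 ± 0.18 (SE; edgeR adjusted p = 6.61e-26). The strand setting of the counting is not stated, so its reads and those of its partner cannot be told apart with certainty; ALDH1A3 itself had a log2 change of -2.16. CYP26B1, the enzyme that breaks down retinoic acid, stood at 3.77, 2.66 and 2.46 CPM at the high dose and at 36.5, 34.0 and 36.3 CPM in the vehicle. CYP1B1, a cytochrome P450 induced through the aryl hydrocarbon receptor, stood at 8.74, 9.03 and 9.35 CPM at the high dose and at 123, 122 and 124 CPM in the vehicle. Its medium-dose log2 change was only -0.11, and that change was not called. MN1, a transcriptional coregulator known from meningioma, stood at 3.06, 2.44 and 2.52 CPM at the high dose and at 46.5, 43.2 and 44.3 CPM in the vehicle. ATOH8, a basic helix-loop-helix factor, had a log2 change of -3.73, and TSPAN18, a tetraspanin, of -3.52. The mitotic kinesins KIF18B and KIF20A had -3.97 and -3.48. The rule that named these falls took only genes whose groups did not overlap, so that separation is fixed by the choice.

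**Figure D2:**
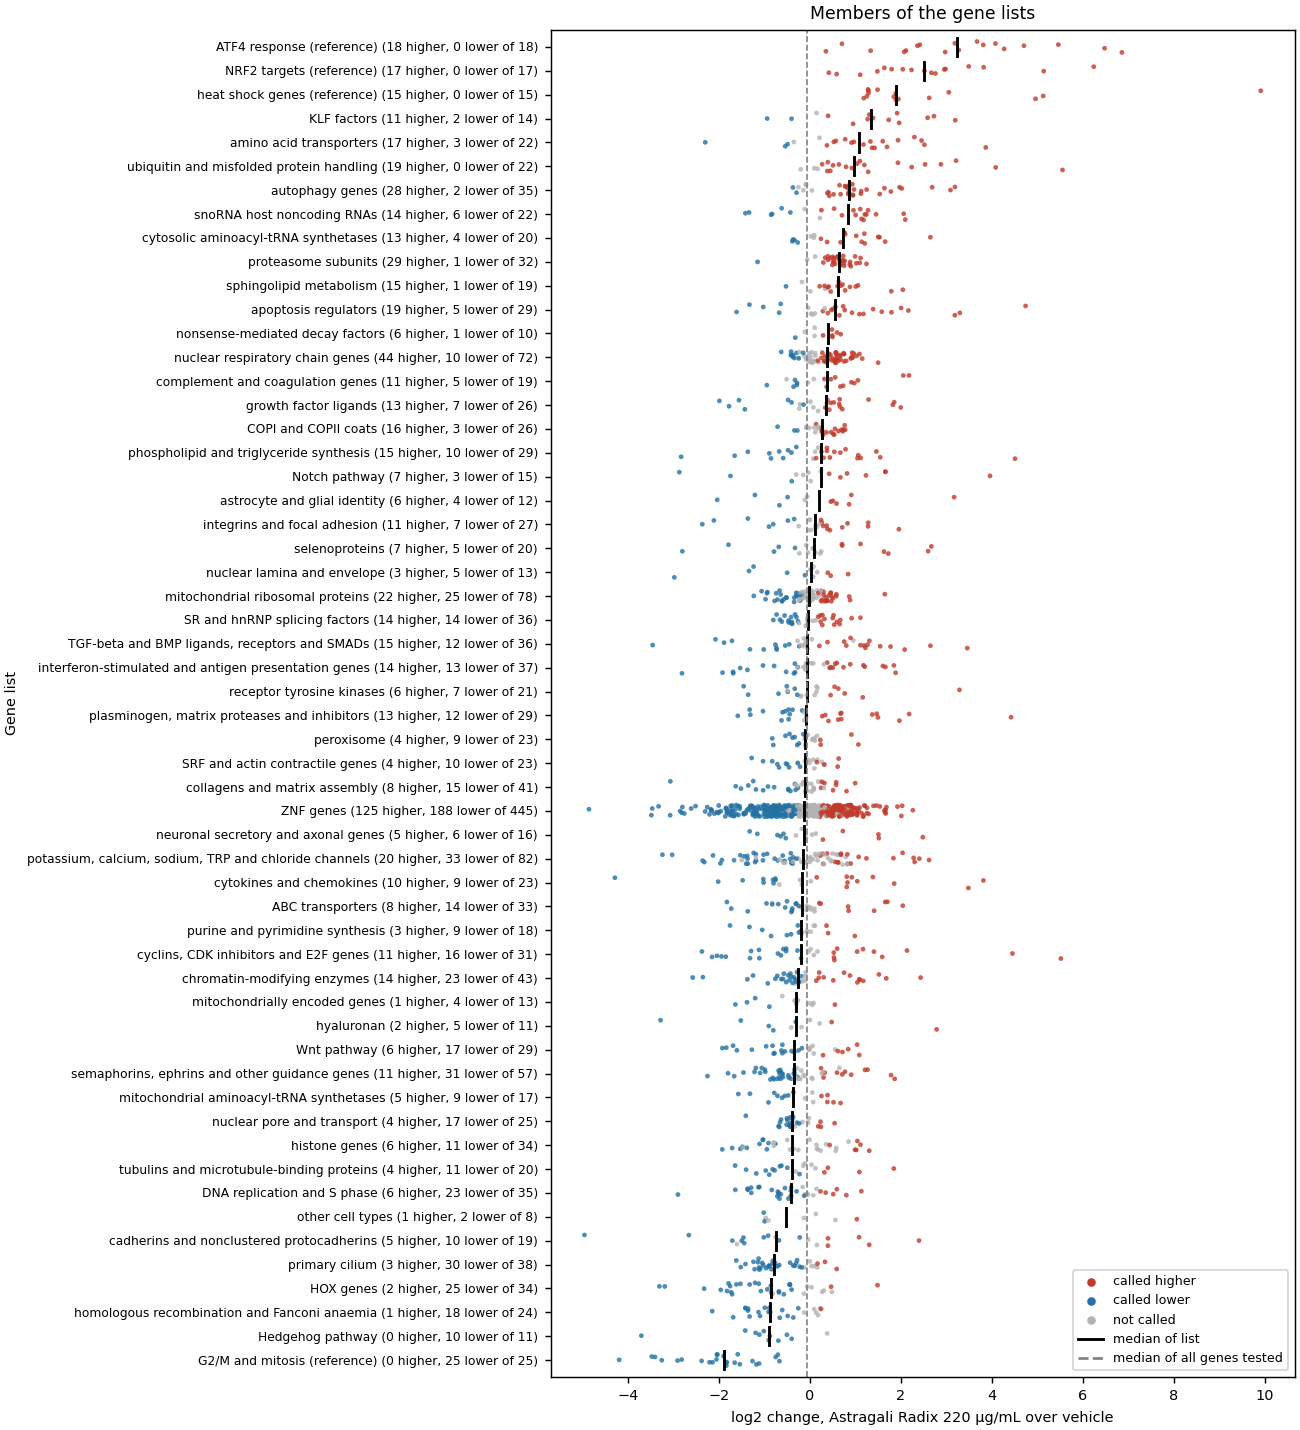
Each point is the log2 change of 1 gene, the high dose over the vehicle, in gene lists ordered by their median (black bar); red points were called higher, blue lower and grey not called, and the dashed line is the median of all genes tested. The reference lists of stress genes lie at the top and the mitosis list at the bottom. Just above the mitosis list stand Hedgehog, homologous recombination, HOX and primary cilium genes. For COPI and COPII coats, 16 higher and 3 lower turned to 7 higher and 9 lower by total counts alone.

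The primary cilium, the antenna on which Hedgehog signals are received, lost messages across its parts. Of 38 cilium genes tested, 30 fell and 3 rose (median log2 change -0.80, against -0.06 for all genes). At the medium dose the median was 0.01, with 1 lower call. By subgroups formed after the values were seen, all 5 subunits of the IFT-A train fell (median -0.72), as did 9 of 11 of IFT-B (median -0.44), all 3 motor subunits, 5 of 7 BBSome subunits (median -0.90) and 5 of 7 transition zone proteins (median -1.09). CEP290, which builds the transition zone, stood at 7.93, 9.08 and 9.90 CPM at the high dose and at 27.6, 28.5 and 26.6 CPM in the vehicle (log2 change -1.62 ± 0.10, SE). KIF3A, a motor of outward transport, stood at 15.7, 15.9 and 19.4 CPM at the high dose and at 50.5, 45.7 and 49.7 CPM in the vehicle. IFT140 stood at 6.23, 6.42 and 5.72 CPM at the high dose and at 15.8, 16.9 and 16.7 CPM in the vehicle. BBS12 ran the other way, at 9.69, 9.60 and 9.71 CPM at the high dose and 6.23, 6.12 and 7.00 CPM in the vehicle. IFT52 also rose by the main scaling (log2 change 0.33), but by total counts alone its change was -0.0071 and it was not called.

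Of 11 Hedgehog genes, 10 fell and none was called higher by edgeR (median -0.91; DESeq2 called 9 lower and none higher). Those given here beyond the rule for named genes were chosen after their values were seen. The receptor gene PTCH1 averaged 4.05 ± 0.11 CPM at the high dose and 7.62 ± 0.94 CPM in the vehicle (SD, n = 3 each). SMO, the transducer of the signal, averaged 12.3 ± 0.6 CPM at the high dose and 22.7 ± 0.28 CPM in the vehicle. SUFU, which restrains the GLI factors, stood at 10.7, 12.1 and 12.5 CPM at the high dose and at 26.4, 24.2 and 25.9 CPM in the vehicle. The co-receptor genes CDON, GAS1 and BOC had log2 changes of -1.02, -1.20 and -0.51, and HHIP, also induced by the pathway, -0.70. GLI3 had the smallest called change, -0.40. GLI1, the pathway's best known target, was the exception, averaging 2.40 ± 0.33 CPM at the high dose and 1.87 ± 0.12 CPM in the vehicle, a change that was not called.

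HOX genes encode the factors that give cells a position along the body axis. Of 34 tested, 25 fell and 2 rose (median -0.86), and at the medium dose 19 were already lower (median -0.40 on the log2 scale). Falls came from every cluster: 6 of 10 tested in HOXA, 8 of 9 in HOXB, 6 of 8 in HOXC and 5 of 7 in HOXD. HOXB3 stood at 11.9, 11.7 and 12.5 CPM at the high dose and at 61.6, 58.2 and 61.8 CPM in the vehicle (log2 change -2.33 ± 0.06, SE). HOXB4 stood at 6.48, 6.37 and 6.03 CPM at the high dose and at 25.1, 24.1 and 24.7 CPM in the vehicle. HOXA3 stood at 1.61, 2.05 and 1.84 CPM at the high dose and at 6.56, 6.71 and 6.36 CPM in the vehicle, and its medium-dose log2 change was -1.50. HOXB9 was the exception within its cluster, at 24.1, 22.3 and 20.8 CPM at the high dose and 8.58, 7.82 and 7.61 CPM in the vehicle. Of 20 HOX promoters in the RefSeq table, 17 held CCAAT (85%). HOX clusters carry antisense transcripts, whose reads may be mixed with those of the genes.

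Genome maintenance genes were largely lower. Of 24 genes of homologous recombination and the Fanconi anaemia pathway, which repair broken and crosslinked DNA, 18 fell and 1 rose (median -0.89). XRCC2, a gene of homologous recombination, stood at 8.38, 8.55 and 8.05 CPM at the high dose and at 38.7, 35.2 and 37.6 CPM in the vehicle. The helicase gene BLM stood at 4.62, 4.23 and 4.80 CPM at the high dose and at 15.2, 14.8 and 13.9 CPM in the vehicle. At the medium dose no gene of this list was called lower and 3 were called higher. Of 35 genes of DNA replication and S phase, 23 fell and 6 rose (median -0.42). UHRF1, which keeps up DNA methylation at the fork, stood at 10.4, 9.43 and 8.55 CPM at the high dose and at 70.6, 69.5 and 73.4 CPM in the vehicle. RRM2, a subunit of ribonucleotide reductase, stood at 97.8, 87.1 and 72.7 CPM at the high dose and at 228, 223 and 219 CPM in the vehicle. CDC6, which licenses replication origins, went the other way and stood at 165, 162 and 143 CPM at the high dose and at 89.5, 91.9 and 89.2 CPM in the vehicle. GINS3 and GINS1, subunits of 1 helicase complex, had log2 changes of opposite sign, 1.13 and -1.65.

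Of 13 genes of the nuclear lamina and envelope, 5 fell and 3 rose (median 0.02), so fewer were called than the 68.2% of all genes. LMNB1, the lamin lost in many arrested cells, stood at 11.2, 10.5 and 10.9 CPM at the high dose and at 82.7, 90.0 and 85.5 CPM in the vehicle (log2 change -2.99 ± 0.07, SE; edgeR adjusted p = 6.82e-34). LMNB2 and TMPO, also of the lamina, had -1.34 and -1.24, while EMD, the inner membrane protein emerin, had 0.84. Of 25 nuclear pore and transport genes, 17 fell and 4 rose (median -0.40). TPR, the basket of the pore, stood at 67.1, 67.6 and 69.9 CPM at the high dose and at 180, 181 and 184 CPM in the vehicle. The rises of NUP50 (log2 change 0.24) and NUP153 (0.23) were small, and by total counts alone they were -0.10 and -0.10 and not called. Of 43 chromatin-modifying enzymes, 23 fell and 14 rose. The remodeller HELLS stood at 7.38, 7.11 and 7.19 CPM at the high dose and at 35.9, 38.7 and 36.8 CPM in the vehicle, and DNMT1, the maintenance DNA methyltransferase, had a log2 change of -1.26. KDM7A, a histone demethylase, stood at 75.7, 75.0 and 68.3 CPM at the high dose and at 13.9, 14.0 and 12.8 CPM in the vehicle. The histone deacetylases HDAC5 and HDAC9 rose, with 1.68 and 1.51. Of 34 histone genes tested, 11 fell and 6 rose, again a smaller share than among all genes. Histone genes are near-copies of each other and share reads.

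Cell cycle regulators moved both ways. Of 31 cyclin, CDK inhibitor and E2F genes, 16 fell and 11 rose. CDKN1A, the inhibitor p21, stood at 1290, 1304 and 1119 CPM at the high dose and at 27.4, 28.1 and 25.6 CPM in the vehicle (log2 change 5.52 ± 0.08, SE; edgeR adjusted p = 1.2e-42). Its medium-dose change of 0.16 was not called. CDKN1C, the inhibitor p57, stood at 21.9, 19.4 and 11.9 CPM at the high dose and at 0.454, 1.14 and 0.816 CPM in the vehicle. CCNG2, an atypical cyclin of resting cells, had 2.13, against -2.05 for CCNB1, the mitotic cyclin, -2.38 for E2F8 and -2.16 for E2F2. Of 29 apoptosis regulators, 19 rose and 5 fell (median 0.56). PMAIP1, the pro-death protein NOXA, stood at 401, 422 and 375 CPM at the high dose and at 43.6, 44.5 and 43.7 CPM in the vehicle. The death receptor gene TNFRSF10B stood at 292, 289 and 299 CPM at the high dose and at 67.8, 61.8 and 66.9 CPM in the vehicle. CASP8, the protease such receptors engage, had a log2 change of -1.33, and the receptor gene FAS of -0.68.

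Protein disposal and recycling genes rose as groups. Of 32 proteasome subunits, 29 rose and 1 fell (median 0.63): 13 of 14 of the core (PSMA and PSMB), all 6 ATPases of the cap (PSMC) and 10 of 12 non-ATPases (PSMD). PSMD14, the deubiquitinase of the cap, stood at 173, 182 and 174 CPM at the high dose and at 72.5, 79.2 and 72.4 CPM in the vehicle. PSMD5, which helps assemble the cap, was the exception, at 36.8, 39.1 and 41.4 CPM at the high dose and 86.2, 84.5 and 90.2 CPM in the vehicle. At the medium dose, 14 subunits were called higher (median 0.21). Of 35 autophagy genes, 28 rose and 2 fell (median 0.85). MAP1LC3B, which coats the autophagosome, stood at 839, 875 and 762 CPM at the high dose and at 88.5, 96.9 and 86.5 CPM in the vehicle (log2 change 3.19 ± 0.07, SE). Its relative GABARAPL1 stood at 214, 213 and 207 CPM at the high dose and at 26.8, 23.6 and 24.3 CPM in the vehicle. SQSTM1, the cargo receptor p62, stood at 3473, 3518 and 3275 CPM at the high dose and at 530, 534 and 532 CPM in the vehicle. At the medium dose MAP1LC3B had a small called rise of 0.20, and the change of GABARAPL1, -0.19, was not called. Of 22 genes handling ubiquitin and misfolded proteins, 19 rose and none was called lower by edgeR (median 0.98; DESeq2 called none lower). The small chaperone CRYAB stood at 72.9, 58.2 and 33.7 CPM at the high dose and at 1.11, 1.07 and 1.33 CPM in the vehicle, the third library again lowest. ZFAND2A, a heat-shock-induced partner of the proteasome, had 4.08, and HSPB8, a chaperone of aggregate clearance, 3.21.

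Genes for amino acid supply and tRNA charging rose unevenly. Of 22 amino acid transporters, 17 rose and 3 fell (median 1.07). SLC3A2, the heavy chain shared by several exchangers, stood at 2272, 2198 and 2179 CPM at the high dose and at 146, 159 and 152 CPM in the vehicle. SLC7A11, its cystine-importing partner, stood at 550, 586 and 616 CPM at the high dose and at 104, 101 and 101 CPM in the vehicle. SLC38A4, another neutral amino acid transporter, stood at 1.76, 1.61 and 1.35 CPM at the high dose and at 7.26, 7.89 and 8.47 CPM in the vehicle. Of 20 cytosolic aminoacyl-tRNA synthetases, 13 rose and 4 fell (median 0.71), whereas of 17 mitochondrial ones 5 rose and 9 fell (median -0.37). GARS1, the glycine enzyme that serves both compartments, stood at 1444, 1529 and 1365 CPM at the high dose and at 233, 230 and 230 CPM in the vehicle. TARS2, the mitochondrial threonine enzyme, stood at 8.08, 8.51 and 9.22 CPM at the high dose and at 25.1, 26.5 and 25.3 CPM in the vehicle. FARSA and FARSB, the subunits of the cytosolic phenylalanine enzyme, fell together, with -0.39 and -0.34. Of 22 noncoding host RNAs that carry snoRNAs in their introns, 14 rose and 6 fell (median 0.83). SNHG5 stood at 87.0, 90.9 and 89.5 CPM at the high dose and at 20.3, 22.5 and 19.8 CPM in the vehicle, while SNHG3 stood at 23.2, 27.0 and 24.3 CPM at the high dose and at 68.9, 67.1 and 64.3 CPM in the vehicle. Of 10 factors of nonsense-mediated decay, the pathway that clears such host RNAs, 6 rose and 1 fell, but by total counts alone 2 rose and 4 fell. EEF1A1, the elongation factor that delivers charged tRNAs and an abundant message in both groups, had a log2 change of 1.03 ± 0.05 (SE).

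RNAs from the mitochondrial genome differed from gene to gene. Of the 13 protein-coding RNAs, 4 fell and 1 rose (median -0.31). MT-ND1, MT-ND2, MT-ND3, MT-ND5 and MT-ND6 were not called, although their 3 high-dose values lay below their 3 vehicle values. The spread in this fit is shared with groups outside the comparison. Among them is the low dose of Astragali Radix, whose mitochondrial share of counts ran from 1.38% to 5.93%. How far that group set which genes were called was not tested. MT-CO3 stood at 2747, 3031 and 3410 CPM at the high dose and at 8615, 7714 and 7700 CPM in the vehicle (log2 change -1.39 ± 0.20, SE; edgeR adjusted p = 4.89e-08). MT-ATP6 stood at 1717, 1852 and 1999 CPM at the high dose and at 4217, 4309 and 4324 CPM in the vehicle, and MT-CYB had a log2 change of -0.90. MT-CO1 was not called different, at 16155, 16285 and 17036 CPM at the high dose and 17118, 15799 and 16843 CPM in the vehicle. The ribosomal RNA MT-RNR1 stood at 2362, 2452 and 2162 CPM at the high dose and at 1000, 891 and 916 CPM in the vehicle, and MT-RNR2 had a log2 change of 0.58. MT-ATP8, with -1.64, overlaps MT-ATP6, and MT-ND4L, with 0.55, overlaps MT-ND4, so their reads are shared. At the medium dose 10 of the 13 were lower than in the vehicle, with a median of -0.80 on the log2 scale. The share of all counts from the mitochondrial genome was 5.70% to 6.21% at the high dose and 7.55% to 8.04% in the vehicle. The vehicle share was the highest of all groups, and against the low dose of Cinnamomi Cortex as the comparator 2 of the 13 were lower and 5 higher. By total counts alone 9 were lower and none higher than in the vehicle in the edgeR test, by upper quartile 6 and none, and with only the 6 compared libraries 9 were lower and 1 higher. DESeq2 called 5 lower and 1 higher.

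**Figure D3:**
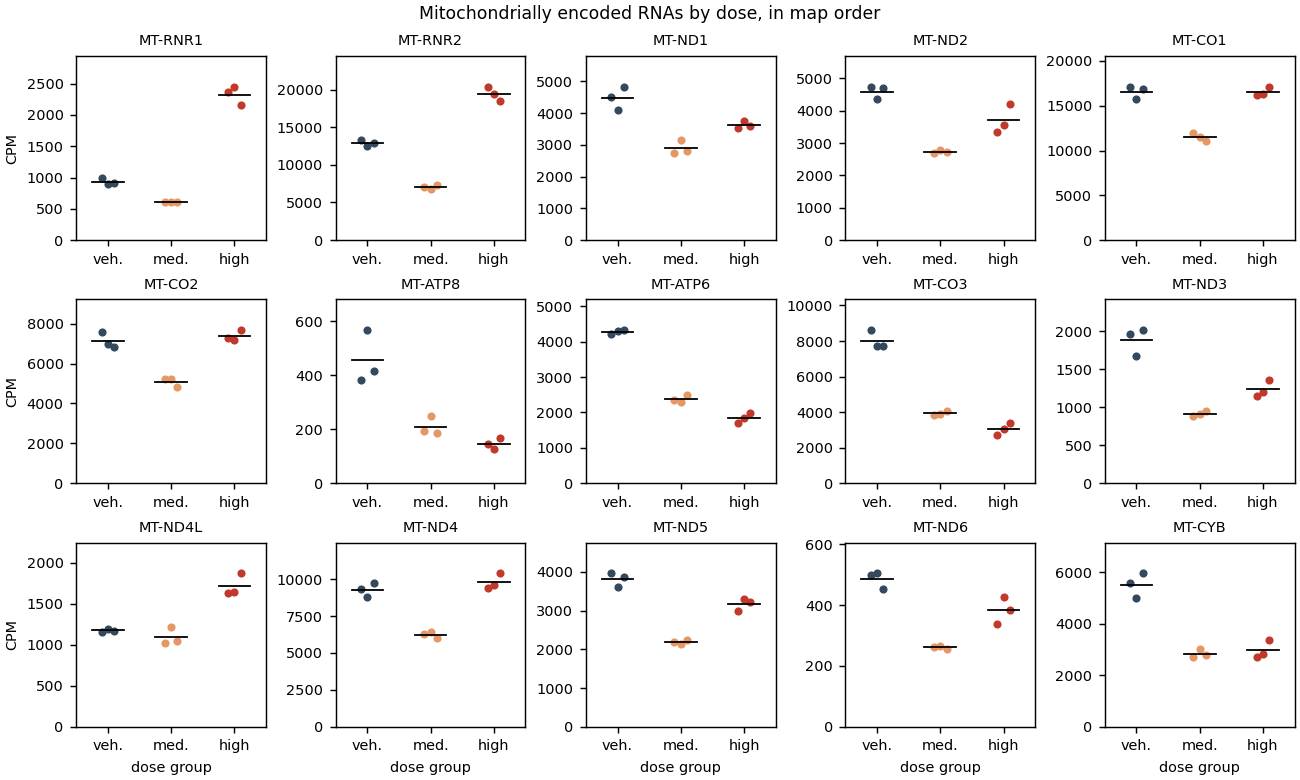
CPM of 15 RNAs of the mitochondrial genome in the vehicle, medium-dose and high-dose libraries, with 1 point per library and a black bar at the group mean, each panel on its own axis from 0. MT-ATP6, MT-CO3 and MT-CYB lie below the vehicle at both doses, while MT-RNR1 and MT-RNR2 lie below it at the medium dose and above it at the high dose.

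The nuclear genes of the respiratory chain ran mostly upward. Of 72, 44 rose and 10 fell (median 0.37), but by total counts alone 25 rose and 25 fell. All 10 COX genes of complex IV rose (median 0.58), as did 8 of 12 ATP5 genes of the ATP synthase and 18 of 37 NDUF genes. NDUFA1 stood at 107, 116 and 106 CPM at the high dose and at 39.0, 45.4 and 32.2 CPM in the vehicle, and COX6C had a log2 change of 1.15. Of 78 mitochondrial ribosomal proteins, 22 rose and 25 fell (median -0.02). By total counts alone 5 rose and 52 fell, by upper quartile 15 and 34, and with only the 6 compared libraries in the fit 23 and 34. MRPL18 was the furthest up, at 228, 211 and 170 CPM at the high dose and 64.9, 67.1 and 63.3 CPM in the vehicle. MRPL16 stood at 9.89, 9.95 and 9.35 CPM at the high dose and at 23.0, 24.2 and 21.8 CPM in the vehicle. Of 23 peroxisome genes, 9 fell and 4 rose, and by total counts alone 17 fell and 2 rose.

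Lipid genes differed by pathway. PLIN2, which coats lipid droplets, stood at 1268, 1310 and 1254 CPM at the high dose and at 58.1, 57.6 and 52.6 CPM in the vehicle (log2 change 4.51 ± 0.07, SE; edgeR adjusted p = 1.26e-41). Of 29 genes of phospholipid and triglyceride synthesis, 15 rose and 10 fell; by total counts alone 9 rose and 12 fell. LPCAT4, an acyltransferase of phospholipid remodelling, stood at 3.72, 3.49 and 3.63 CPM at the high dose and at 27.2, 23.9 and 26.3 CPM in the vehicle, and GPAM, which starts triglyceride synthesis, had -1.66. Of 19 sphingolipid genes, 15 rose and 1 fell (median 0.60). SPHK1, which makes sphingosine phosphate, stood at 327, 349 and 306 CPM at the high dose and at 76.8, 85.5 and 76.5 CPM in the vehicle. UGCG, which makes glucosylceramide, stood at 177, 180 and 191 CPM at the high dose and at 52.2, 54.5 and 52.1 CPM in the vehicle. Purine and pyrimidine synthesis went the other way, with 9 of 18 genes lower and 3 higher (14 and 1 by total counts alone). PFAS, an enzyme of purine synthesis, stood at 28, 25.0 and 28 CPM at the high dose and at 89.3, 92.4 and 92.6 CPM in the vehicle, and CAD, which starts pyrimidine synthesis, had -1.33. Of 20 selenoproteins and their factors, 7 rose and 5 fell, and by total counts alone 7 rose and 9 fell. TXNRD1 (thioredoxin reductase) and SEPHS2 rose, with 2.67 and 2.60. DIO2, which activates thyroid hormone, fell to 6.68, 6.5 and 5.66 CPM at the high dose, against 46.5, 42.2 and 44.2 CPM in the vehicle.

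Matrix genes fell about as often as all genes. Of 41 genes of collagens and matrix assembly, 15 fell and 8 rose (median -0.12, against -0.06 for all genes; 35.6% of all genes fell), and by total counts alone 30 fell and 2 rose. THBS1, the matricellular protein thrombospondin, stood at 299, 250 and 269 CPM at the high dose and at 2297, 2259 and 2330 CPM in the vehicle, with no change at the medium dose that was called (log2 change -3.07 ± 0.08 at the high dose, SE, and -0.04 at the medium dose). COL1A1, a chain of the main fibrillar collagen, stood at 1556, 1350 and 1303 CPM at the high dose and at 4294, 4377 and 4394 CPM in the vehicle. LOX, which crosslinks collagen, stood at 409, 407 and 396 CPM at the high dose and at 201, 206 and 203 CPM in the vehicle. Of 29 matrix proteases, plasminogen genes and inhibitors, 13 rose and 12 fell. By total counts alone 9 rose and 16 fell, by upper quartile 11 and 15, and with only the 6 compared libraries 13 and 15. MMP1 and MMP3 rose, with 1.97 and 2.18, and the plasminogen activators PLAT and PLAU fell, with -1.59 and -1.33. PLAT and PLAU were already at -1.24 and -1.17 at the medium dose. HAS3, a hyaluronan synthase, stood at 5.82, 4.19 and 6.33 CPM at the high dose and at 52.0, 53.0 and 52.8 CPM in the vehicle, and TNFAIP6, which binds hyaluronan, at 38, 39.3 and 37.8 CPM at the high dose and 5.16, 6.08 and 5.46 CPM in the vehicle.

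Adhesion and cytoskeleton genes showed opposed members. Of 19 cadherins and protocadherins, 10 fell and 5 rose (median -0.76). CDH11, a mesenchymal cadherin, stood at 107, 106 and 105 CPM at the high dose and at 347, 346 and 346 CPM in the vehicle, while PCDH1 stood at 21.2, 17.9 and 18.8 CPM at the high dose and at 3.51, 3.51 and 4.00 CPM in the vehicle. Of 27 integrin and focal adhesion genes, 11 rose and 7 fell, and by total counts alone 5 rose and 12 fell. ITGB3 rose (1.95), ITGB8 fell (-2.12) and the actin-linking protein TNS1 fell (-2.37). Of 20 tubulins and microtubule-binding proteins, 11 fell and 4 rose (median -0.41). TUBA1B stood at 884, 883 and 796 CPM at the high dose and at 2288, 2259 and 2254 CPM in the vehicle, and TUBB had -1.18; tubulin genes share reads with their near-copies. MAP2 and MAP1B, which stabilise microtubules in neurons, rose, with 1.84 and 1.08. RND3, which like RND1 opposes contractile actin, stood at 1886, 1972 and 1787 CPM at the high dose and at 67.0, 67.2 and 61.8 CPM in the vehicle (log2 change 4.85 ± 0.09, SE; edgeR adjusted p = 2.14e-39). ARHGAP44 stood at 2.96, 3.23 and 3.75 CPM at the high dose and at 25.0, 25.3 and 25.5 CPM in the vehicle. Of 23 SRF-driven and contractile genes, 10 fell and 4 rose, but against the low dose of Cinnamomi Cortex 6 were lower and 12 higher.

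Signalling pathways differed in how their members moved. Of 29 Wnt genes, 17 fell and 6 rose (median -0.35). The ligand gene WNT7B stood at 16, 13.2 and 12.5 CPM at the high dose and at 51.2, 51.3 and 56.5 CPM in the vehicle, and the co-receptor gene LRP5 had -1.84. Receptor genes went both ways, FZD4 with -1.69 and FZD5 with 1.08. Of 15 Notch genes, 7 rose and 3 fell, and by total counts alone 6 rose and 6 fell. HES4, a target of the pathway, stood at 21.6, 18 and 15.6 CPM at the high dose and at 1.28, 1.14 and 1.12 CPM in the vehicle, HEY1 had 1.65, and the coactivator MAML2 had -1.75. Of 36 TGF-beta and BMP genes, 15 rose and 12 fell, a balance that turned to 13 and 19 by total counts alone. By upper quartile 13 rose and 18 fell, and with only the 6 compared libraries 15 and 16. The ligand gene BMP6 stood at 11, 9.86 and 10.1 CPM at the high dose and at 0.949, 0.711 and 1.16 CPM in the vehicle. SMAD6, an inhibitor of BMP signals, stood at 1.31, 1.48 and 1.17 CPM at the high dose and at 13.7, 15.3 and 15.3 CPM in the vehicle, and SMAD3, a transducer of TGF-beta, at 44.5, 41.2 and 43.8 CPM at the high dose and 160, 160 and 160 CPM in the vehicle. Of 26 growth factor ligands, 13 rose and 7 fell, and by total counts alone 7 rose and 9 fell. HBEGF, a ligand of the EGF receptor, stood at 179, 184 and 166 CPM at the high dose and at 46.0, 44.0 and 42.8 CPM in the vehicle, and KITLG, the ligand of KIT, had 1.85, while KIT itself had -0.70. FGF7 and FGF5 fell, with -2.0 and -1.56. Of 57 guidance genes, 31 fell and 11 rose (median -0.35), among them EPHA2 with -1.47 and PLXNA4 with -1.81, against 1.86 for the ephrin gene EFNA3.

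Immune genes gave no common direction, and their counts stand beside 32.6% higher and 35.6% lower among all genes tested. Of 23 cytokines and chemokines, 10 rose (43.5%) and 9 fell (39.1%). By total counts alone 7 rose and 13 fell, and by upper quartile 7 and 10. CCL2, which attracts monocytes (ENSG00000108691, chr17:34255218-34257203), stood at 2.61, 1.79 and 1.91 CPM at the high dose and at 42.7, 40.9 and 40.3 CPM in the vehicle (log2 change -4.29 ± 0.20, SE; edgeR adjusted p = 3.19e-23), and had -1.64 at the medium dose. CXCL8, which attracts neutrophils, stood at 125, 118 and 103 CPM at the high dose and at 10.1, 11.3 and 9.63 CPM in the vehicle. CCL26, an eosinophil attractant, stood at 54.9, 49.9 and 34.7 CPM at the high dose and at 3.84, 2.84 and 3.27 CPM in the vehicle. At the medium dose neither CXCL8 nor CCL26 was called (0.05 each on the log2 scale). Of 37 interferon-stimulated and antigen presentation genes, 14 rose (37.8%) and 13 fell (35.1%), near the shares of all genes. By total counts alone 10 rose and 21 fell, and by upper quartile 13 and 19. With only the 6 compared libraries 15 rose and 16 fell, and against the low dose of Cinnamomi Cortex 13 and 15. IRF7 and CD274, the checkpoint ligand PD-L1, rose, with 1.84 and 1.66, and the antiviral genes OAS2 and OAS3 fell, each with -1.69. Of 19 complement and coagulation genes, 11 rose (57.9%) and 5 fell (26.3%), and by total counts alone 7 rose and 7 fell. CD55, which shields cells from complement, stood at 393, 398 and 367 CPM at the high dose and at 88.8, 83.6 and 84.1 CPM in the vehicle, and THBD, an anticoagulant receptor, had 2.05, whereas F3, the tissue factor that starts clotting, had -0.95.

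Genes of glial and neuronal identity moved singly. NFIA, a factor of astrocyte development, stood at 1.61, 0.960 and 1.29 CPM at the high dose and at 5.69, 4.89 and 5.20 CPM in the vehicle, and NES, the progenitor filament nestin, had -1.21. CLU and GLUL, a secreted chaperone and the glutamine synthetase of astrocytes, had 0.91 and 0.86. The glutamate transporter gene SLC1A3 had -0.49. BDNF, a neurotrophin, had -0.72 and the synaptic SNARE gene SNAP25 -1.33.

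Transcription factor families went apart. Of 14 KLF factors, 11 rose and 2 fell (median 1.34). KLF4 stood at 68.4, 64.0 and 59.3 CPM at the high dose and at 7.59, 6.99 and 6.36 CPM in the vehicle (log2 change 3.19 ± 0.09, SE), and KLF11 at 49.2, 46.2 and 39.2 CPM at the high dose and 6.77, 7.18 and 6.4 CPM in the vehicle. Of 445 ZNF genes, 188 fell and 125 rose (median -0.14), beside a background of 35.6% and 32.6%; by total counts alone 263 fell and 70 rose. ZNF107 stood at 2.86, 2.79 and 2.09 CPM at the high dose and at 21.8, 21.2 and 23.3 CPM in the vehicle, and ZNF697 at 94.2, 92.8 and 89.9 CPM at the high dose and 23.2, 23.0 and 22.7 CPM in the vehicle. Of 36 SR and hnRNP splicing factors, 14 rose and 14 fell, but by total counts alone 7 rose and 22 fell and by upper quartile 10 and 19. Of 82 ion channel genes, 33 fell and 20 rose, and of 33 ABC transporters 14 fell and 8 rose; by total counts alone 24 of these transporters fell and 6 rose. The drug exporter gene ABCB1 had 0.85 at the high dose and -0.51 at the medium dose.

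Gene classes were set side by side, with no test, since their levels differ. Of 2462 long noncoding RNAs tested, 313 rose (12.7%) and 1014 fell (41.2%), with a median log2 change of -0.59. Of 13882 protein-coding genes, 5183 rose (37.3%) and 4875 fell (35.1%), with a median of 0.02. Between 1 and 5 CPM the medians were -0.58 for 692 long noncoding RNAs and -0.29 for 1636 protein-coding genes, and between 5 and 50 CPM -0.34 for 244 and -0.09 for 5920. At 50 CPM or more the order turned, with 0.70 for 24 long noncoding RNAs and 0.29 for 4681 protein-coding genes. The small number of long noncoding RNAs at that level limits the comparison. Processed pseudogenes, which may take reads from their parent genes, had medians of -0.19 for 310 below 1 CPM, 0.46 for 99 at 1 to 5 CPM and 0.63 for 38 at 5 to 50 CPM. Across all genes with an annotated value, the log2 change had a rank correlation of -0.010 with exon length and 0.0062 with GC content, given as a description of these libraries.

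**Figure D4:**
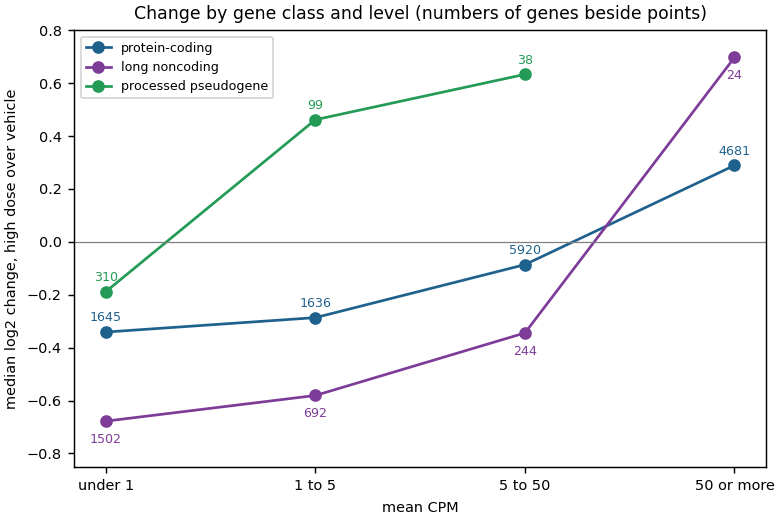
Median log2 change, the high dose over the vehicle, against the mean CPM of the 6 libraries in 4 ranges, for protein-coding genes, long noncoding RNAs and processed pseudogenes, with the number of genes beside each point; pseudogenes at 50 CPM or more were too few to plot. The long noncoding line lies below the protein-coding line in the lower 3 ranges and above it in the highest.

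Some genes did not follow the dose in 1 direction. The medium and high doses were compared with the same vehicle libraries. The 16 genes plotted are the 8 each way chosen by rule from 466 that were called at both doses with opposite signs, 264 of them higher and 202 lower at the high dose, so that the doses differ is fixed by the choice and their values are a description. KLF5 stood at 160, 157 and 145 CPM at the high dose and at 40.4, 39.0 and 39.7 CPM in the vehicle, with a log2 change of -0.70 at the medium dose and 1.96 at the high dose. The high dose exceeded the medium dose by 2.66 on the log2 scale. PTGS2, the inducible cyclooxygenase, stood at 184, 178 and 165 CPM at the high dose and at 91.9, 98.6 and 89.6 CPM in the vehicle, with -0.76 at the medium dose and 0.91 at the high dose. GPRC5A, an orphan receptor, and FOSB, an immediate early factor, had the same shape, with -0.77 and -0.75 at the medium dose and 0.92 and 1.88 at the high dose. In the other direction, FPGT, an enzyme of fucose salvage, stood at 4.17, 4.32 and 5.23 CPM at the high dose and at 11, 11.2 and 10.7 CPM in the vehicle, with 0.58 at the medium dose and -1.27 at the high dose. RTN4IP1, a mitochondrial protein, had 0.63 at the medium dose and -0.94 at the high dose, and CHTF18, which loads the replication clamp, 0.62 and -0.62. FPGT and CHTF18 values at the high dose and in the vehicle did not overlap.

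**Figure D5:**
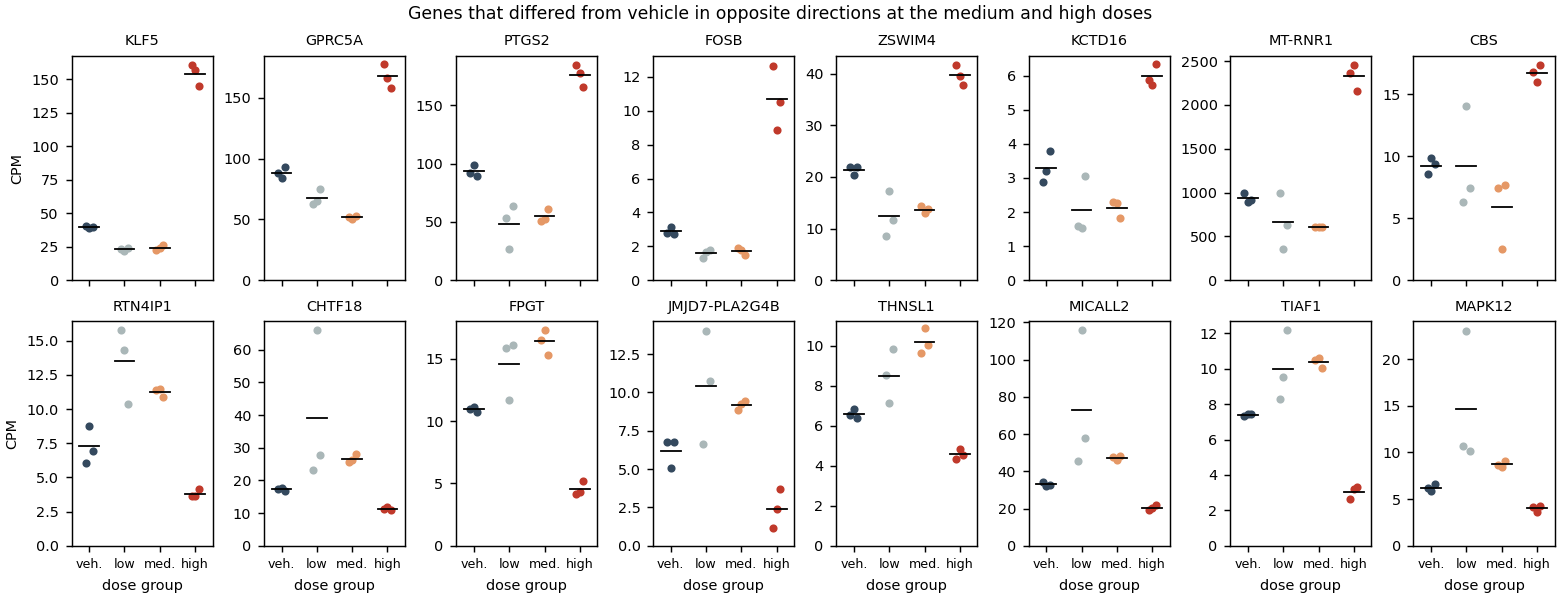
CPM of 16 genes called against the vehicle at both the medium and the high dose with opposite signs, in the vehicle, low-dose, medium-dose and high-dose libraries, with 1 point per library and a black bar at the group mean, each axis from 0. The upper row lies highest at the high dose and the lower row lowest there; the 3 low-dose libraries scatter more than those of the other groups.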

How the data were processed

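RNA-seq libraries of SW1783 cells were read from a table of expected counts per gene, deposited by the authors without normalization. Reads were trimmed with Trim Galore 0.6.5, checked with FastQC 0.11.9, aligned with STAR 2.7.3a and counted with RSEM 1.3.3 on hg38, per the submitters' processing notes. The strand setting is not given in the sources used here. The table holds 219 columns outside the series, which were not used. Expected counts were rounded to whole numbers, since 90.8% of values were whole (tolerance 1e-09) and 10684 genes had a value that was not. One edgeR 4.0.16 quasi-likelihood fit (R 4.3.3, limma 3.58.1) with TMM scaling and filterByExpr held the 57 libraries of 19 groups with 3 replicates each. P-values were adjusted by Benjamini-Hochberg over all genes tested, with a threshold of 0.05. The fit was tested on simulated data. Alternatives were RLE, upper-quartile and total-count scaling, other filters, DESeq2 1.42.0, other sets of libraries, a replicate block and another comparator. Gene types and positions are those of GENCODE 29.

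Genes were named by rule: the 15 largest rises and falls among called genes at 5 CPM or more whose groups did not overlap, up to 3 each way per list with the most abundant uncalled member, gained and lost genes, the 10 most abundant of each group, up to 8 each way with opposite signs at the medium dose, and the markers. Not all of them are printed, and some items are not reported here. The members and lists were chosen with earlier results of these data known. Figures were drawn with matplotlib 3.10.9.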

Additional observations from a re-analysis of the deposited data

Results flagged for a closer look

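Among 466 genes called against the vehicle at both the medium and the high dose with opposite signs, 16 were named by rule, 8 each way. This choice fixes that the doses differ, so the differences below are a description and not independent support. The high dose exceeded the medium dose on the log2 scale by 2.66 for KLF5, 2.63 for FOSB, 1.94 for MT-RNR1, 1.69 for GPRC5A and 1.68 for PTGS2. It also exceeded it by 1.53 for ZSWIM4, 1.49 for KCTD16 and 1.48 for CBS. The high dose minus the medium dose was -1.96 for JMJD7-PLA2G4B, -1.85 for FPGT, -1.77 for TIAF1 and -1.56 for RTN4IP1. It was -1.23 for CHTF18, -1.21 for MICALL2, -1.15 for THNSL1 and -1.13 for MAPK12. JMJD7-PLA2G4B is a readthrough of neighbouring genes and shares reads with them.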

How the results depend on the processing

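Total-count scaling moved the results most. By it 3573 genes were higher than in the vehicle, 1139 were higher and 4415 lower at 2-fold or more, and 3092 were higher and 9216 lower than at the medium dose. It also turned the small rises of TGFB1I1 (-0.0254), IFT52 (-0.0071), NUP50 (-0.10), NUP153 (-0.10) and PEX5 (-0.10) to small negative values. Of these, IFT52, NUP50 and NUP153 were not called by total counts. PEX5 was -0.0211 against Cinnamomi Cortex low. Keeping only genes at 5 CPM or more in 3 libraries left 1128 genes higher and 1530 lower at 2-fold or more. Calls against the vehicle ranged from 11286 to 11619 when 1 library was left out, and against the medium dose from 10972 to 11309. Without replicates 1 and 2 of the low dose of Astragali Radix in the fit, 13276 of 18357 genes tested were called against the vehicle. Same-numbered high-dose and vehicle libraries showed no shared deviation (correlations 0.0096, -0.0022 and 0.025). Such correlations cannot exclude that libraries of the same number were handled together. With a replicate block 12074 genes were called, 12016 of them shared, and 11762 against the medium dose. DESeq2 called 11890, of which 11698 were shared with edgeR.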
